A study of Mus musculus with 17 samples.

Results

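The tumours described here are the 3 mouse mammary tumours whose source name gives deletion of p53 alone, set against the 5 samples of normal mammary tissue of the same series. They were chosen by those labels, and together they make up 8 of the 17 arrays. The p53 tumours arose in MMTV-Cre mice, in which the mouse mammary tumour virus promoter, active mainly in mammary and some other epithelial and blood cells, drives the recombinase that removes the p53 gene. The normal tissue came from Rbp53 mice, the model in which both Rb and p53 can be deleted, and the labels do not say whether those mice carried Cre. All mice had a mixed strain background, and parity and age are not given for these 8 samples. For p53 replicate 3 the title gives the Rbp53 model, but the tissue, description and source name each give p53 deletion, and it was kept here by those. The labels call the tumours independent but do not say how many mice gave the 5 normal samples, so a p-value here reflects sample-to-sample spread, which may in part be technical. Another 9 arrays, of tumours labelled as lacking both genes, served to estimate the spread and for 1 comparison at the end. The titles of these tumours name MMTV-Cre for most and Ad-Cre for the rest.

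The transcription factor p53 is stabilised by DNA damage and other stress, and then switches on genes that halt the cell cycle, repair DNA or start apoptosis. Mammary tumours that arise after its loss are often poorly differentiated, and a resting mammary gland is a thin tree of luminal and basal epithelium inside a pad of fat. A whole-tissue array reads all of these cells together with vessels, nerves and immune cells. In such bulk samples fewer cells of a type and less RNA per cell cannot be told apart.

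One Affymetrix Mouse Gene 1.0 ST array was run per sample, and levels are log2 values after RMA, the normalisation and summary of probes into probe sets. Normal tissue read high for adipocyte, luminal and basal markers, with Adipoq at 13.32, 13.04, 13.06, 12.81 and 12.54, Epcam at 11.89 to 12.18 and Krt5 at 10.81 to 11.27. The array of p53 replicate 2 was unlike the rest, with Pearson correlations to the other 16 arrays of 0.888 to 0.915, against 0.975 between p53 replicates 1 and 3, and its interquartile range was 2.39 log2 units against 2.96 and 3.03 on theirs. Most results are therefore given with and without it. Values below 6.37 on the log2 scale, the lowest 25th percentile of any array, are called dim here and are not shown to be above background. Trp53, the targeted gene, and its target Cdkn1a had no probe set of their own and were not analysed, so the deletion itself is not checked by these data.

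Rb1, which encodes the retinoblastoma protein, is not targeted in these tumours according to their source names, but the title of replicate 3 leaves this unsettled for that tumour. Rb1 read 9.93, 11.00 and 10.27 in p53 replicates 1, 2 and 3, and 11.50, 11.19, 10.93, 11.48 and 10.97 in the 5 normal samples. Replicates 1 and 3 lay below every normal sample and replicate 2 lay among them. The log2 fold was -0.81 ± 0.21 (limma adjusted p = 0.0124), and -1.11 without replicate 2 (adjusted p = 0.000822). With replicate 3 moved to the Rbp53 tumours it was -0.75 (adjusted p = 0.0556). The 9 Rbp53 tumours read 9.29 to 9.92, so all 3 p53 tumours lay above them, replicate 1 barely and replicate 3, whose title names that model, more clearly. Without replicate 1 the adjusted p was 0.0751.

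Promoter sequence is shown for 3 genes that mark both ends of the comparison, and because genes of the factors that bind the motifs in it changed as well. Whether those factors act on the 3 genes was not tested. Mmp13 and Mmp12 encode matrix proteases that were among the largest rises shared by all 3 tumours, and Lep encodes the adipocyte hormone leptin, among the largest shared falls. Each is the 150 bases just upstream of a RefSeq transcription start (GRCm38.p6), 5′ to 3′ on the strand of the gene, and all 3 lie on the plus strand. Capitals mark the binding motif of AP-1, a dimer of Fos and Jun proteins (TGACTCA or TGAGTCA), in Mmp13 and Mmp12, and that of C/EBP proteins (TTGCNNAA) in Lep.
Mmp13, chr9:7272364-7272513: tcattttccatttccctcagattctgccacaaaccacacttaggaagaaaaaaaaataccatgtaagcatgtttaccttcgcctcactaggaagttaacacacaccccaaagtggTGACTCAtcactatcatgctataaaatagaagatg
Mmp12, chr9:7347224-7347373: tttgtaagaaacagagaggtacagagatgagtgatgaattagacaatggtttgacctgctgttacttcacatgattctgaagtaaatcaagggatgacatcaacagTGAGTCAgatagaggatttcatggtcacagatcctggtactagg
Lep, chr6:29060071-29060220: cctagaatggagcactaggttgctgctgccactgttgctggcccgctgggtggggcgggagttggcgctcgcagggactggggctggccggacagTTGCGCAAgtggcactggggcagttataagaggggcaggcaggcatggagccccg
The AP-1 letters start 35 bases upstream of the start in Mmp13 and 44 in Mmp12, and the C/EBP letters start 55 bases upstream in Lep. Both motifs were searched on both strands of the 250 bases upstream of all 32851 RefSeq promoters, and they did not overlap each other in the stretches shown. An AP-1 motif was present in 5.16% of genes with a promoter sequence, in 6.73% of the 624 shared rises that had one and in 4.58% of the 1353 shared falls. For C/EBP the shares were 10.8%, 10.9% and 10.3%. A match in letters is a description, and neither motif was much more frequent among the shared changes than among all genes.

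Of 19938 genes tested, 4073 differed (20.4%): 1663 were higher in p53 tumours (8.34% of genes) and 2410 lower (12.1%) at a limma adjusted p below 0.05. Without p53 replicate 2 the counts were 2073 (10.4%) and 2160 (10.8%). These shares are the background for the counts of list members below, with all 3 tumours and without replicate 2. Of the genes called with all 3 tumours, 1011 of those higher and 1867 of those lower were called again without replicate 2, and 0 changed direction. Large falls outnumbered large rises: 1170 called genes fell by at least 1 log2 unit (5.87%) and 447 rose by as much (2.24%). The median of all genes was 0.09 log2 units above normal, or 0.04 without replicate 2.

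All 3 tumours lay above all 5 normal samples in 1968 genes (9.87%) and below them in 2689 (13.5%), of which 1242 (6.23% of all genes) and 2114 (10.6%) passed the test. A change is called shared here where the gene passed the test with and without replicate 2 and the 3 tumours lay on one side of all normal samples; 842 genes rose (4.22%) and 1733 fell (8.69%) by that rule. In 142 of the rises (0.712% of all genes) and 719 of the falls (3.61%) even the least changed tumour differed from the normal mean by at least 1 log2 unit. Shared genes are ranked below by that least changed tumour, so that none is named for 1 tumour alone.

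**Figure D1:**
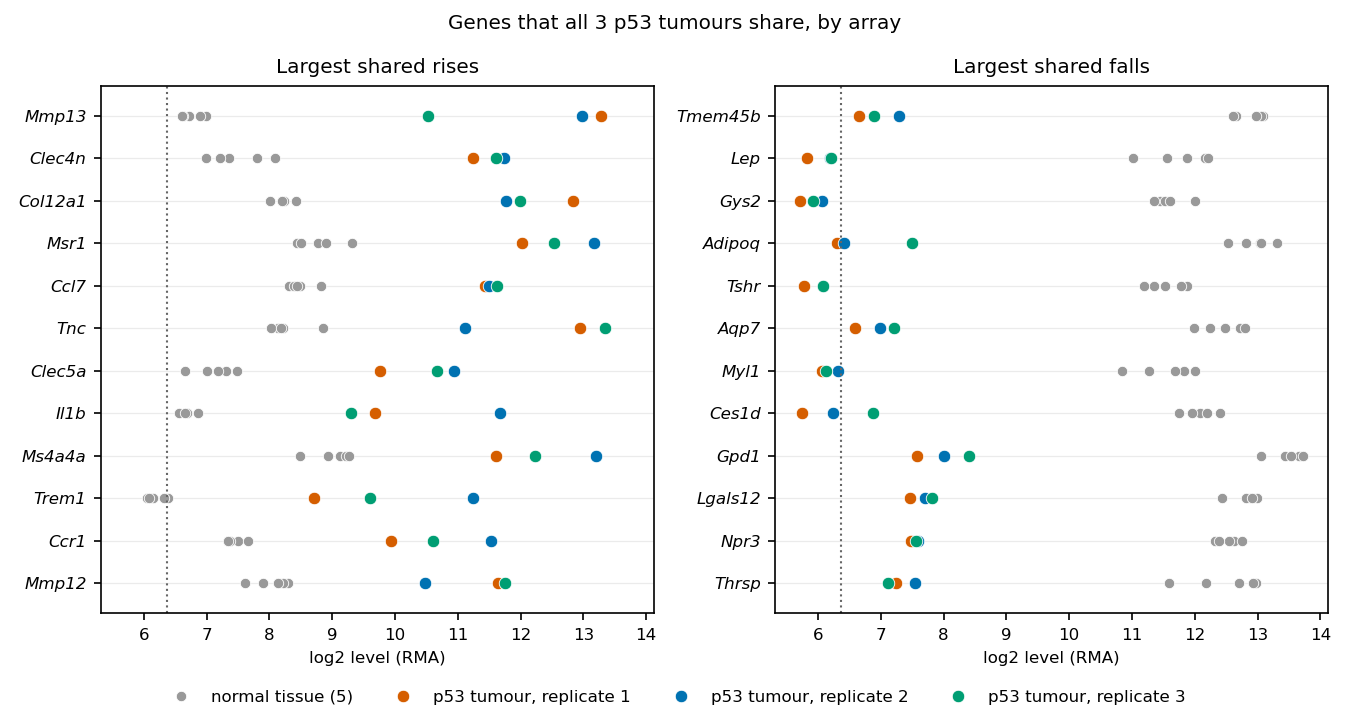
Log2 level (RMA, x axis) of the 12 largest shared rises and the 12 largest shared falls (rows) on each array: coloured points are the 3 p53 tumours, grey points the 5 normal samples, and the dotted line marks the dim level of 6.37. Tumours and normal samples do not overlap in any row, since that was part of the rule, and the gaps are wider in the falls than in the rises.

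The largest shared rise was that of Mmp13, a collagenase. It read 13.29, 12.97 and 10.53 in p53 replicates 1, 2 and 3 and 6.71, 6.99, 6.89, 6.62 and 6.61 in normal tissue, a log2 fold of 5.50 ± 1.09 (SE, as for all folds below; adjusted p = 0.00169). Replicate 3 was the lowest of the tumours and still lay far above the normal samples. Mmp12, the macrophage elastase, read 11.64, 10.48 and 11.75 against 8.29, 7.89, 7.61, 8.22 and 8.13 (log2 fold 3.26 ± 0.70, adjusted p = 0.00329). Among matrix genes Col12a1, a fibril-associated collagen, read 12.84, 11.76 and 11.98 against 8.01, 8.19, 8.42, 8.22 and 8.21 (log2 fold 3.99 ± 0.62), and Tnc, the matrix glycoprotein tenascin C, 12.95, 11.12 and 13.34 against 8.22, 8.14, 8.03, 8.85 and 8.19 (log2 fold 4.19 ± 0.66). In Tnc replicate 2 was the lowest tumour, and in Col12a1 replicate 1 was the highest.

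The other 8 of the 12 largest shared rises are genes of myeloid cells and their signals. Clec4n, the C-type lectin dectin-2, read 11.25, 11.74 and 11.61 against 7.36, 7.22, 8.09, 7.81 and 6.98 (log2 fold 4.04 ± 0.46, adjusted p = 8.16e-06), and Msr1, a macrophage scavenger receptor, 12.02, 13.17 and 12.54 against 8.43, 8.50, 8.77, 9.31 and 8.91 (log2 fold 3.79 ± 0.36, adjusted p = 1.14e-06). In both, replicate 1 was the lowest tumour. Clec5a, another myeloid lectin, rose by 3.33 ± 0.44, Ms4a4a, a membrane protein of macrophages, by 3.34 ± 0.35, and Ccr1, a chemokine receptor, by 3.25 ± 0.41. The chemokine Ccl7 read 11.43, 11.50 and 11.62 against 8.31, 8.82, 8.49, 8.39 and 8.44, the smallest spread over the tumours of these 12 rises. Il1b, the cytokine interleukin 1 beta, read 9.67, 11.67 and 9.30 against 6.56 to 6.86, and Trem1, an activating receptor of neutrophils and monocytes, 8.71, 11.24 and 9.60 against 6.05 to 6.38; in both, replicate 2 was the highest. Trem1 was dim in 4 of the 5 normal samples, so its fold of 3.65 ± 0.55 is not exact.

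Of the 12 largest shared falls, at least 8 are known as genes of fat cells. Adipoq, the hormone adiponectin, read 6.30, 6.41 and 7.49 in the 3 tumours (log2 fold -6.22 ± 0.48, adjusted p = 1.02e-07), with replicate 3 the highest and every tumour far below the lowest normal sample. Lep read 5.82, 6.20 and 6.20 against 12.16, 11.88, 12.21, 11.55 and 11.01 (log2 fold -5.69 ± 0.25, adjusted p = 7.03e-11). Gys2, a glycogen synthase, read 5.72, 6.06 and 5.92 against 11.35 to 12.001, and Aqp7, the glycerol channel, 6.59, 6.98 and 7.20 against 11.99 to 12.80. Gpd1, which makes the glycerol backbone of triglyceride, fell by 5.49 ± 0.31, Thrsp, a regulator of fat synthesis, fell by 5.17 ± 0.28, Lgals12, a galectin of lipid droplets, fell by 5.15 ± 0.22, and Ces1d, a carboxylesterase of fat and liver, fell by 5.79 ± 0.77 log2 units. The tumours were dim on all 3 arrays for Lep and Gys2, on 2 for Ces1d and on 1 for Adipoq, so these folds are not exact.

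The remaining shared falls of that size were those of Tmem45b, a transmembrane protein, Tshr, the receptor of thyrotropin, Npr3, the clearance receptor of natriuretic peptides, and Myl1, a myosin light chain of skeletal muscle. Tmem45b read 6.66, 7.29 and 6.89 against 13.08, 13.05, 12.66, 12.98 and 12.61 (log2 fold -5.93 ± 0.18, adjusted p = 1.11e-12). Tshr read 5.77, 6.08 and 6.09, all dim, against 11.20 to 11.88, Npr3 7.48, 7.59 and 7.56 against 12.33 to 12.76, and Myl1 6.07, 6.31 and 6.13, all dim, against 10.85 to 11.999. In each of these genes the tumours differed little among themselves. Whether the falls of these genes are separate from those of the fat cell genes was not tested.

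**Figure D2:**
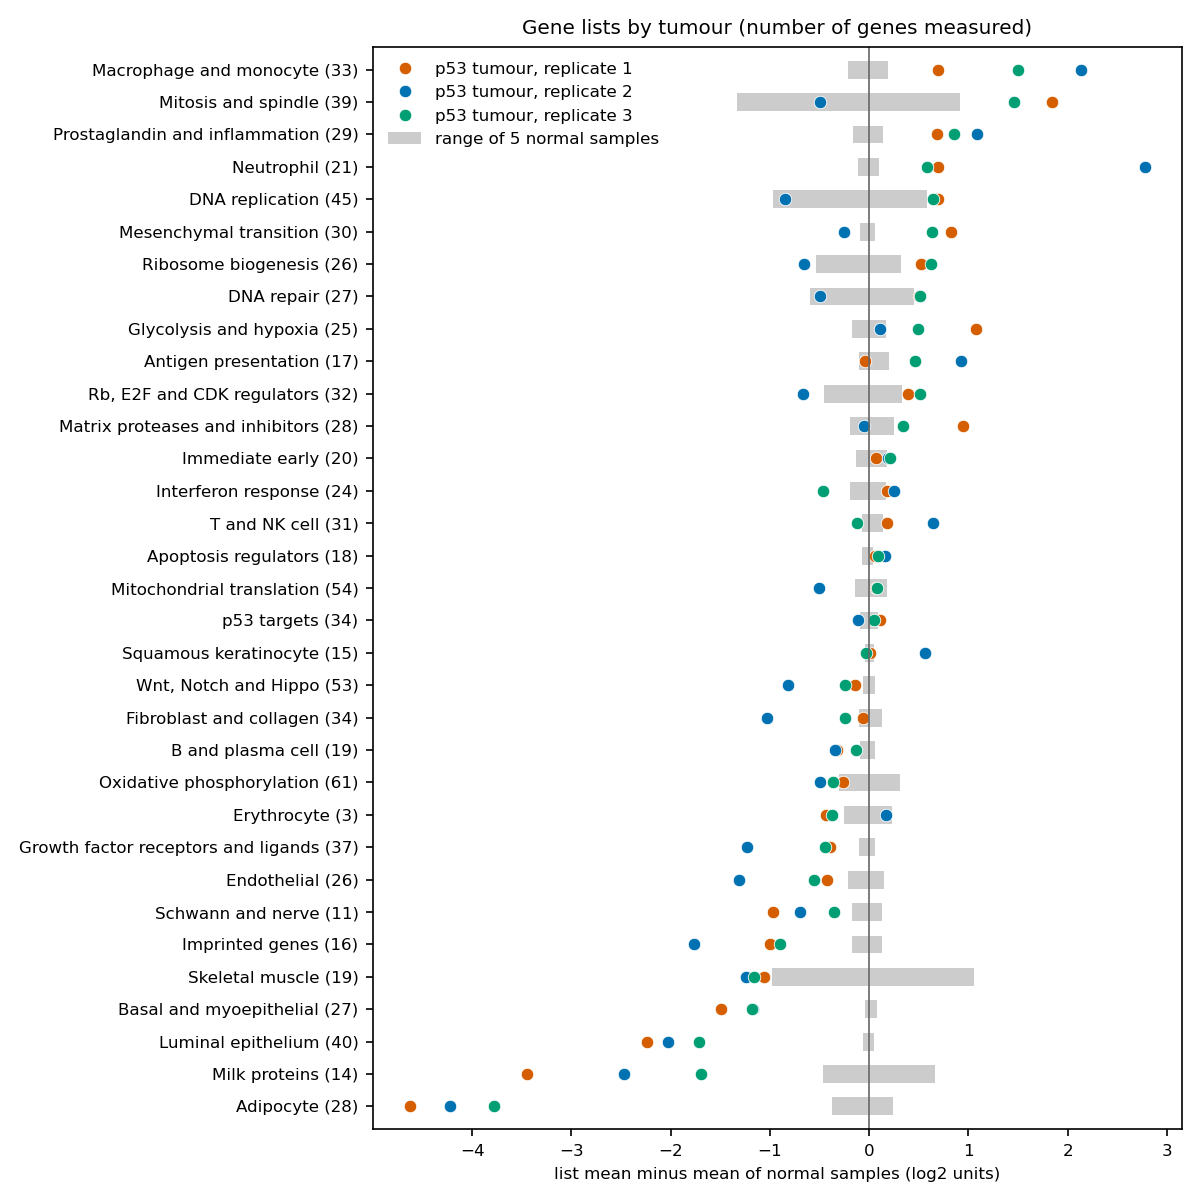
Mean log2 level over the measured members of each gene list, as the difference from the mean of the 5 normal samples (x axis, log2 units): coloured points are the 3 p53 tumours and the grey bar spans the normal samples. The adipocyte list lies lowest in every tumour, the macrophage list lies above the normal samples in all 3, and on the mitosis list p53 replicate 2 falls inside the bar while the other tumours lie above it.

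The p53 targets on the array did not move together. Of 34 measured, 3 rose, 5 fell and 26 did not pass the test, against 8.34% and 12.1% of all genes, and all 8 that passed were shared changes. Without replicate 2, 5 rose and 6 fell; the falls numbered 3 to 6 when 1 of the 8 arrays was left out at a time. Their median log2 fold was -0.03, beside 0.09 for all genes. Phlda3, an inhibitor of Akt, read 10.08, 8.23 and 9.66 against 10.98, 11.18, 10.89, 10.88 and 10.63 (log2 fold -1.59 ± 0.28, adjusted p = 0.000702), with replicate 2 the lowest. Ddb2, which recognises ultraviolet damage in DNA, read 7.59, 7.64 and 7.64 against 8.66, 8.58, 8.68, 8.19 and 8.14 (log2 fold -0.83 ± 0.17, adjusted p = 0.00236), the tumours being nearly equal. Ccng1, cyclin G1, fell by 0.62 ± 0.15, Ei24, a protein of the endoplasmic reticulum, fell by 0.72 ± 0.14, and Xpc, a partner of Ddb2 in excision repair, fell by 0.26 ± 0.08 log2 units; without replicate 1 the calls on Ccng1 and Xpc were lost (adjusted p = 0.0561 and 0.0819), and that on Xpc also without 3 of the normal samples, left out 1 at a time (up to 0.0603).

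The 3 targets that rose belong to apoptosis and the stress response. Apaf1, the core of the apoptosome, read 10.81, 10.47 and 10.08 against 8.95, 8.76, 8.84, 8.94 and 8.93 (log2 fold 1.57 ± 0.16, adjusted p = 1.97e-06), and every tumour exceeded the highest normal sample by more than 1 log2 unit. Pmaip1, the BH3-only protein Noxa, rose by 0.82 ± 0.18 and Plk3, a stress kinase, by 0.74 ± 0.24. The call on Pmaip1 was lost when replicate 3 was counted as an Rbp53 tumour (adjusted p = 0.0746), and that on Plk3 then and without replicate 1, replicate 3 or any of 4 normal samples (up to 0.119). Mdm2, which degrades p53 and is itself a target, read 9.96, 9.54 and 9.68 against 9.68, 9.83, 10.04, 9.77 and 9.68, and the groups overlapped (log2 fold -0.07 ± 0.16, adjusted p = 0.774). Other apoptosis regulators were counted too: of 18, 3 rose and 1 fell, beside 8.34% and 12.1% of all genes. Without replicate 2 the counts were 1 and 1, beside 10.4% and 10.8%. Bcl2l11, the BH3-only protein Bim, rose by 1.13 ± 0.22 and Bcl2, which holds apoptosis back, fell by 0.88 ± 0.20, both called without replicate 2 as well (adjusted p = 0.00942 and 0.0092). The rises of Bcl2l1 (0.94 ± 0.25) and Mcl1 (0.50 ± 0.17), also inhibitors of apoptosis, were lost without replicate 2 (adjusted p = 0.0845 and 0.278), and that of Mcl1 without replicate 3 or any of 4 normal samples as well.

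Among 32 regulators of the step from G1 to S phase, 4 rose and 2 fell, beside 8.34% and 12.1% of all genes; without replicate 2 the counts were 6 and 2, and 2 to 6 and 1 to 5 when 1 of the 8 arrays was left out at a time. Cdkn2a, which encodes the inhibitors p16 and p19Arf, read 10.28, 8.33 and 10.59 against 7.75, 7.43, 7.45, 7.65 and 7.63 (log2 fold 2.15 ± 0.53, adjusted p = 0.00846); all 3 tumours lay above the normal samples, replicate 2 by the least. Its relative Cdkn2c, p18, changed the other way, at 9.86, 8.76 and 8.77 against 11.17, 10.96, 11.00, 10.68 and 10.52 (log2 fold -1.74 ± 0.35, adjusted p = 0.0021). Cdk6, a kinase that p16 and p18 inhibit, rose by 1.22 ± 0.28 (adjusted p = 0.00463) and stayed called without replicate 2 (adjusted p = 0.00408). Skp2, which marks the inhibitor p27 for degradation, rose by 0.89 ± 0.29, a call lost without replicate 1 (adjusted p = 0.122) or 3 (0.106) or any of 3 normal samples, and Cdkn2d, p19Ink4d, by 0.44 ± 0.15 (adjusted p = 0.0484), the latter not without replicate 2 (adjusted p = 0.155), replicate 1 or any 1 of the normal samples (up to 0.0924).

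Several genes of this step read differently in replicate 2 from the other tumours and did not pass. Ccnd1, cyclin D1, read 12.74, 10.39 and 12.95 against 10.61 to 12.63, and Myc 11.74, 8.83 and 11.75 against 10.49 to 11.31, with replicate 2 below every normal sample in both (adjusted p = 0.845 and 0.794). E2f1 read 9.76, 8.72 and 9.55 against 8.20 to 9.27 (log2 fold 0.39 ± 0.27, adjusted p = 0.32), and Ccne1, cyclin E1, 9.32, 8.54 and 10.01 against 7.82 to 9.51 (0.45 ± 0.34, adjusted p = 0.347). Without replicate 2 their adjusted p values were 0.0911 and 0.108. Rbl1, the Rb relative p107, read 10.16, 8.60 and 9.90 against 8.69 to 9.97 (adjusted p = 0.772).

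Genes of mitosis were high in 2 of the 3 tumours. Of 39 measured, replicate 1 lay above all normal samples in 36, replicate 3 in 31 and replicate 2 in 0, where over all genes the shares were 34.4%, 31.7% and 43.1%. The mean level of the list was 10.57, 8.23 and 10.19 in replicates 1, 2 and 3, and normal samples ranged widely, from 7.40 to 9.64. With all 3 tumours 4 genes rose (median 0.94) and 32 without replicate 2 (median 1.64, background 10.4%); leaving out any other of the 8 arrays gave 1 to 10 rises. The 4 were Espl1, the separase that splits sister chromatids, Cenpa, the centromeric histone, Anln, anillin of the contractile ring, and Cdc25c, which activates Cdk1. Espl1 read 9.49, 8.16 and 9.09 against 7.48, 7.91, 7.83, 7.57 and 8.18 (log2 fold 1.12 ± 0.25, adjusted p = 0.00443), and Anln 11.80, 8.73 and 11.16 against 7.41, 9.21, 8.70, 8.66 and 9.93 (1.78 ± 0.57, adjusted p = 0.0371), with replicate 2 inside the normal range in both. The call on Anln was lost without either of the other tumours (adjusted p = 0.173 without replicate 1) or any of 3 normal samples. Mki67, the proliferation marker, read 11.68, 10.13 and 10.87 against 8.43, 10.48, 10.18, 10.44 and 11.49 and did not pass (adjusted p = 0.286, or 0.152 without replicate 2).

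Counts for DNA replication, repair and ribosome biogenesis also turned on replicate 2. None of 45 replication genes passed with all 3 tumours, and 11 rose without replicate 2, beside 10.4% of all genes. Replicate 1 exceeded all normal samples in 32, replicate 3 in 26 and replicate 2 in 0. Over all genes those shares were 34.4%, 31.7% and 43.1%. Of 27 genes of homologous recombination and other repair, 1 fell, the kinase Chek2 (-0.92 ± 0.24, adjusted p = 0.0126), a call lost without replicate 2 (adjusted p = 0.0576), and 7 then rose. Of 26 ribosome biogenesis genes 1 rose, or 11 without replicate 2. That gene, Pes1, which matures the large ribosomal subunit, read 10.24, 9.82 and 10.10 against 9.01, 9.59, 9.49, 8.96 and 9.10 (log2 fold 0.82 ± 0.20, adjusted p = 0.00747), all tumours being above all normal samples.

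**Figure D3:**
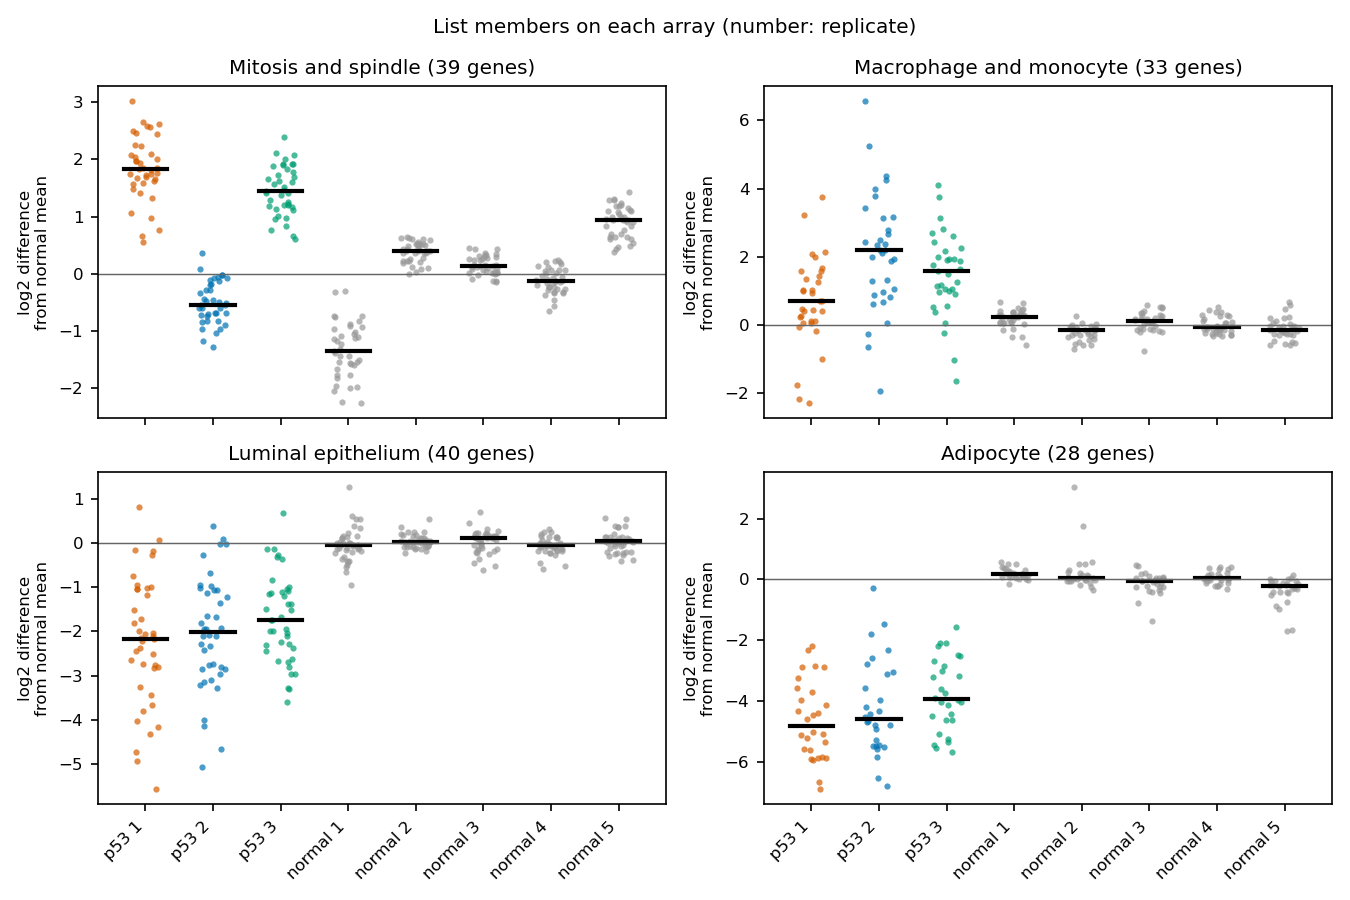
Every measured member of 4 gene lists on each of the 8 arrays, as the log2 difference from the mean of the 5 normal samples for that gene; points are genes, black bars are medians, and the scale of the y axis differs between panels. Mitosis genes lie high in p53 replicates 1 and 3 and low in replicate 2, macrophage genes lie highest in replicate 2, and adipocyte and luminal genes lie low in all 3 tumours.

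Many genes of the respiratory chain fell, and many of glycolysis rose. Of 61 genes of oxidative phosphorylation 27 fell and 0 rose (median log2 fold -0.38), against 12.1% and 8.34% of all genes. Without replicate 2, 20 fell, against 10.8%. Uqcrc2, a core subunit of complex III, read 12.17, 12.10 and 12.17 against 12.96, 13.15, 12.97, 12.88 and 12.68 (log2 fold -0.78 ± 0.11, adjusted p = 5.35e-05), with the tumours nearly equal. Sdha, the catalytic subunit of complex II, fell by 1.02 ± 0.20 and Atp5e, a subunit of the ATP synthase, fell by 0.95 ± 0.15. The list mean was 10.95, 10.73 and 10.86 in the tumours and 10.91 to 11.53 in normal samples, so replicate 1 lay inside the normal range. Fat and muscle genes fell on the same arrays, and their part in these lower values was not tested. For mitochondrial translation, of 54 genes 1 rose and 3 fell (1 to 5 and 0 to 6 when 1 of the 8 arrays was left out at a time). Tufm, the mitochondrial elongation factor, read 10.16, 9.22 and 10.05 against 9.91 to 10.43 (adjusted p = 0.136). Its adjusted p was 0.0479 without replicate 1 and 0.752 without replicate 2, where the log2 fold was -0.08.

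Of 25 glycolysis and hypoxia genes 9 rose, against 8.34% of all genes, and none fell (median 0.49). Without replicate 2, 12 rose, against 10.4%. Slc16a3, the exporter of lactate, read 11.32, 10.58 and 10.86 against 8.12, 8.11, 8.06, 8.38 and 8.19 (log2 fold 2.75 ± 0.37, adjusted p = 4.65e-05), and all tumours lay more than 2 log2 units above the highest normal sample. Slc2a1, the glucose transporter GLUT1, read 13.06, 11.72 and 12.50 against 11.15, 11.26, 11.17, 11.04 and 10.98 (1.31 ± 0.26, adjusted p = 0.00161). Ankrd37, a target of the hypoxia-inducible factor, rose by 1.39 ± 0.25 and Pkm, pyruvate kinase, by 1.08 ± 0.26.

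Every one of the 28 measured adipocyte genes fell, against 12.1% of all genes (median log2 fold -4.17), and 27 of them without replicate 2. The mean level of the list was 7.72, 8.12 and 8.57 in p53 replicates 1, 2 and 3 and 11.97 to 12.59 in normal samples. Plin1, the coat protein of lipid droplets, read 7.38, 7.67 and 7.99 against 12.78, 12.60, 12.31, 12.60 and 12.07, Fabp4, a fatty acid carrier, 9.43, 9.58 and 10.17 against 13.61 to 13.93, and Cidec, which enlarges lipid droplets, 7.44, 7.73 and 8.58 against 12.75 to 13.36. Car3, carbonic anhydrase of fat and muscle, read 7.19, 7.31 and 11.60 against 13.97 to 14.16, so that replicate 3 kept a level well above the other tumours. Pparg, the master regulator of fat cells, fell by 4.33 ± 0.19, and Cebpa, a C/EBP protein, fell by 1.39 ± 0.30; both were named here after their values were seen, and the call on Cebpa (adjusted p = 0.00343) was kept without replicate 2 (adjusted p = 9.54e-06).

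Most luminal epithelial genes fell. Of 40 measured, 29 fell, against 12.1% of all genes, and none rose (median -1.94), and 29 fell without replicate 2. Elf5, the factor of the alveolar lineage, read 6.51, 6.78 and 7.84 against 11.38, 11.31, 11.56, 11.40 and 11.57 (log2 fold -4.40 ± 0.56, adjusted p = 2.81e-05). Epcam, a surface protein of epithelium, read 6.47, 6.96 and 9.81 against 11.89, 12.09, 11.97, 12.18 and 12.06 (-4.29 ± 0.93, adjusted p = 0.00327), and replicate 3 was nearly 3 log2 units above the other tumours while below all normal samples. Cdh1, E-cadherin, read 8.55, 8.04 and 9.62 against 10.65, 11.19, 10.87, 10.96 and 11.36 (-2.27 ± 0.51, adjusted p = 0.00449), again highest in replicate 3. The claudin Cldn8 fell by 3.40 ± 0.54, the splicing factor Esrp1 fell by 3.43 ± 0.61 and the transcription factor Ehf fell by 3.64 ± 0.70; Esrp1 was dim in 1 tumour.

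The luminal keratins Krt8 and Krt18 varied between the tumours. Krt8 read 13.27, 10.36 and 13.13 against 12.57, 12.45, 12.31, 12.43 and 12.50, and Krt18 10.52, 7.70 and 11.56 against 12.24, 11.72, 11.84, 11.25 and 11.43: replicates 1 and 3 were above the normal samples for Krt8, replicate 1 was below them for Krt18, and replicate 2 for both. Neither passed with all 3 tumours (adjusted p = 0.826 and 0.0711) nor without replicate 2 (adjusted p = 0.33 and 0.463). Of the hormone receptors, Esr1 of oestrogen read 8.50, 9.17 and 8.93 against 10.30, 10.21, 10.13, 10.56 and 10.34 (log2 fold -1.44 ± 0.19, adjusted p = 3.41e-05), whereas Pgr of progesterone, at 7.56, 7.61 and 6.51 against 7.90 to 8.95, did not pass although the groups did not overlap (adjusted p = 0.0669). With replicate 3 counted as an Rbp53 tumour Krt18 was called lower (adjusted p = 0.00987).

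Of 27 basal and myoepithelial genes 16 fell, against 12.1% of all genes, and none rose (median -1.23), with 15 lower without replicate 2. Krt5, a basal keratin, read 6.92, 9.53 and 8.02 against 10.81, 11.20, 10.87, 11.25 and 11.27 (log2 fold -2.93 ± 0.44, adjusted p = 0.000144), replicate 2 being the highest tumour. Krt14 read 7.84, 9.82 and 7.72 against 9.58 to 10.40; replicate 2 lay inside the normal range, and the call (adjusted p = 0.0443) was lost without replicate 1 (0.144) or 3 (0.139) or any 1 of the normal samples. Trp63, the transcription factor p63 of basal cells, read 7.77, 8.07 and 7.80 against 9.25, 9.54, 9.18, 9.51 and 9.67 (-1.55 ± 0.17, adjusted p = 7.44e-06), and Myh11, smooth muscle myosin, 7.64, 8.26 and 8.11 against 10.45 to 10.81 (-2.60 ± 0.15). Igfbp5, a binding protein of insulin-like growth factors, fell by 4.63 ± 0.66, Sncg, gamma-synuclein, fell by 4.31 ± 0.23, and Oxtr, the oxytocin receptor through which milk is ejected, fell by 2.49 ± 0.25. Sncg is made by fat cells as well. Acta2, smooth muscle actin, read 11.91, 11.50 and 12.23 against 13.17 to 13.23 and did not pass although the groups did not overlap (adjusted p = 0.0617); it was called lower with replicate 3 counted as an Rbp53 tumour (adjusted p = 0.0498).

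Of 14 milk genes 8 fell (median -2.12), against 12.1% of all genes, or 9 without replicate 2. The caseins differed most between tumours: Csn2, beta-casein, read 7.67, 8.44 and 11.44 against 13.98, 14.04, 14.24, 14.31 and 13.84 (log2 fold -4.90 ± 1.19, adjusted p = 0.00768), and Csn1s1 4.86, 6.66 and 11.23 against 13.37, 13.39, 13.58, 13.70 and 13.59 (-5.94 ± 1.26, adjusted p = 0.00296). Replicate 3 was high and replicate 1 low in both, and all tumours lay below all normal samples. Csn1s2a fell by 5.39 ± 1.32 and Btn1a1, a protein of the milk fat globule, fell by 2.96 ± 0.69. Csn1s1 and Csn1s2a were each dim in 1 tumour.

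Of 30 markers of mesenchymal transition 10 rose (median 0.29), against 8.34% of all genes. Another 3 fell, no larger a share than the 12.1% of all genes. Without replicate 2, 12 rose and 0 fell. After Tnc the rises led with S100a4, a calcium-binding protein, at 11.17, 11.23 and 10.31 against 9.19, 8.89, 9.06, 8.12 and 8.29 (log2 fold 2.19 ± 0.49, adjusted p = 0.00414), Itga5, an integrin that binds fibronectin, at 11.78, 10.88 and 11.42 against 9.40, 9.44, 9.41, 9.37 and 9.52 (1.93 ± 0.23, adjusted p = 1.17e-05), and Cd44, the hyaluronan receptor (1.44 ± 0.24, adjusted p = 0.000363). Snai2 and Zeb1, factors that can drive the transition, did not rise. Snai2 read 9.34, 7.46 and 9.79 against 10.55 to 11.17 (-1.97 ± 0.54, adjusted p = 0.0155), a fall that was lost without replicate 2 (adjusted p = 0.1), and Zeb1 read 11.10, 8.70 and 10.57 against 10.24 to 10.80 (adjusted p = 0.469). Vim, vimentin, was high throughout, at 14.04, 13.78 and 14.06 against 13.75 to 13.86 (adjusted p = 0.214, or 0.0342 without replicate 2).

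Among 34 fibroblast and collagen genes Col12a1 alone rose and 6 fell, beside 8.34% and 12.1% of all genes. Without replicate 2, 2 rose and 5 fell. Dpt, dermatopontin, read 8.82, 9.69 and 9.71 against 13.42, 13.10, 13.24, 13.18 and 13.15 (log2 fold -3.81 ± 0.48, adjusted p = 2.87e-05), and Clec3b, tetranectin, 7.07, 7.01 and 7.51 against 9.67 to 10.41 (-2.84 ± 0.18, adjusted p = 6.2e-09). Pi16, a surface marker of adventitial fibroblasts, fell by 2.67 ± 0.40 and Gsn, gelsolin, fell by 2.38 ± 0.22. Col1a1, the main chain of type I collagen, read 12.56, 10.56 and 11.73 against 11.05 to 11.90 (adjusted p = 0.833), with replicate 2 below and replicate 1 above the normal samples.

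Of 28 matrix proteases and inhibitors 8 rose and 3 fell, beside 8.34% and 12.1% of all genes. The rises numbered 4 to 7 when 1 of the 8 arrays was left out at a time, fewest without replicate 1. Besides Mmp13 and Mmp12, Plaur, the receptor of urokinase, read 10.89, 11.67 and 10.08 against 7.90, 8.14, 7.95, 7.92 and 7.93 (log2 fold 2.91 ± 0.40, adjusted p = 6.07e-05), and Adam8, a membrane protease of leukocytes, 10.71, 12.48 and 10.19 against 8.56, 8.36, 8.48, 8.45 and 8.58 (2.64 ± 0.47, adjusted p = 0.000747). The stromelysins set replicate 3 apart: Mmp10 read 11.73, 11.04 and 7.85 against 7.13 to 7.46, and Mmp3 12.61, 12.08 and 9.29 against 8.50 to 11.20, so that replicate 3 lay inside the normal range of Mmp3. The inhibitor Timp4 fell by 5.01 ± 0.24, its relative Timp3 fell by 2.09 ± 0.52, and the aggrecanase Adamts5 fell by 3.33 ± 0.57; the call on Timp3 was lost without replicate 2 (adjusted p = 0.0535), and Timp4 was dim in 2 tumours.

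The list of growth factors and their receptors held 14 falls and 2 rises among 37 genes, beside 12.1% and 8.34% of all genes, or 11 falls and 3 rises without replicate 2. Among ligands Nrg4, a neuregulin made by fat cells, read 6.21, 6.88 and 6.45 against 10.27, 10.40, 9.77, 11.13 and 10.26 (log2 fold -3.85 ± 0.26, adjusted p = 1.66e-08), Fgf10 fell by 3.33 ± 0.34 and Igf1 fell by 2.69 ± 0.32; Nrg4 was dim in 1 tumour. Hbegf, a ligand of the EGF receptor, went the other way, at 10.51, 8.16 and 11.00 against 8.05, 8.03, 7.86, 7.88 and 7.91 (1.95 ± 0.45, adjusted p = 0.00558), with replicate 2 close to the normal samples. Among receptors Fgfr2 fell by 2.50 ± 0.43. Egfr read 10.51, 9.24 and 9.90 against 11.03 to 11.36 (-1.27 ± 0.39, adjusted p = 0.03), a fall lost without replicate 2 (adjusted p = 0.14), replicate 3 (0.0515) or either of 2 normal samples. Met, the receptor of hepatocyte growth factor, read 13.39, 6.82 and 13.26 against 9.79, 10.10, 9.73, 9.82 and 9.97: replicates 1 and 3 were more than 3 log2 units above, and replicate 2 nearly 3 below, every normal sample (adjusted p = 0.422, or 0.00188 without replicate 2).

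In the Wnt, Notch and Hippo pathways 11 of 53 genes fell and 1 rose, where 12.1% and 8.34% of all genes did; without replicate 2 the counts were 10 and 3. The falls were led by Rspo1, an enhancer of Wnt signalling (-3.30 ± 0.45, adjusted p = 6.18e-05), Sfrp4 and Wif1, which bind Wnt ligands outside the cell (-2.70 ± 0.30 and -2.11 ± 0.21), and the receptor Fzd7 (-1.33 ± 0.20). An enhancer and inhibitors of the pathway were thus both among the falls. Wnt7b, a ligand, read 10.05, 7.76 and 10.43 against 7.99, 7.88, 7.73, 7.99 and 7.64 (1.57 ± 0.49, adjusted p = 0.0319), with replicate 2 inside the normal range; the call was lost without replicate 1 (0.117) or 3 (0.133) or any of 3 normal samples. Yap1, the Hippo effector, read 10.63, 8.08 and 10.43 against 10.02 to 10.44, with replicate 2 lowest (adjusted p = 0.688).

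Part of the vessel, nerve and muscle genes fell. Of 26 endothelial genes 13 fell, against 12.1% of all genes, and none rose (median -0.68). Without replicate 2, 9 fell. Tek, the angiopoietin receptor, read 8.78, 7.49 and 8.75 against 11.05, 10.70, 10.71, 10.88 and 10.49 (log2 fold -2.43 ± 0.30, adjusted p = 2.37e-05), and Ptprb, a phosphatase that acts on it, fell by 1.58 ± 0.20. Pecam1, the pan-endothelial adhesion molecule, read 10.50, 8.94 and 10.04 against 10.28 to 10.49 and did not pass (adjusted p = 0.136). Its adjusted p was 0.0248 without replicate 1 and 0.751 without replicate 2, where the log2 fold was -0.12. Of 11 nerve genes 4 fell, or 5 without replicate 2, including Sox10, a factor of Schwann and some mammary cells (-2.02 ± 0.25), and Mbp, myelin basic protein (-1.24 ± 0.13). Of 19 muscle genes 5 fell, or 2 to 11 when 1 of the 8 arrays was left out at a time. Acta1, skeletal actin, read 11.45, 11.57, 9.02, 8.43 and 9.85 in normal samples, which themselves differed by over 3 log2 units.

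Macrophage and monocyte genes rose in all 3 tumours. Of 33 measured, 20 rose and 1 fell against a background of 8.34% and 12.1% (median 1.22), and 16 rose and 1 fell without replicate 2. The mean level of the list was 10.21, 11.65 and 11.02 in replicates 1, 2 and 3 and 9.31 to 9.71 in normal samples, so replicate 2 was the highest. Cd68, a lysosomal protein of macrophages, read 11.56, 13.20 and 12.16 against 11.46, 10.77, 11.18, 10.98 and 11.05 (log2 fold 1.22 ± 0.29, adjusted p = 0.00592). Csf1r, the receptor that macrophages need to survive, read 11.47, 13.44 and 12.40 against 10.97 to 11.71 (1.19 ± 0.41, adjusted p = 0.0484), and Adgre1, a surface marker of mature macrophages, 10.97, 11.53 and 11.62 against 10.36 to 10.83 (0.82 ± 0.27, adjusted p = 0.0367); both calls were lost without replicate 2 (adjusted p = 0.269 and 0.103), replicate 3 or several of the normal samples. The lectins Clec4e and Clec4d, receptors for microbial and damage signals, rose by 3.94 ± 0.75 and 3.07 ± 0.60. Clec4e read 8.24, 12.67 and 9.23 against 5.94 to 6.34, the normal samples being dim, as 1 of them was for Clec4d. Gpnmb, a glycoprotein of lipid-laden macrophages among other cells, read 7.28, 7.10 and 7.40 against 8.47 to 9.67 and was the 1 fall (-1.76 ± 0.54), which was lost without replicate 2 (adjusted p = 0.0769), replicate 1 or either of 2 normal samples.

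Neutrophil genes were most raised in replicate 2. Of 21 measured 7 rose (median 1.43), against 8.34% of all genes. Without replicate 2, 4 rose and 1 fell (median 0.80), beside 10.4% and 10.8%. With replicate 3 counted as an Rbp53 tumour 13 rose, against 14.5% of all genes. The list mean was 8.02, 10.10 and 7.90 in replicates 1, 2 and 3 and 7.21 to 7.42 in normal samples. Mmp8, the neutrophil collagenase, read 7.21, 10.37 and 8.02 against 5.64 to 6.01 (log2 fold 2.75 ± 0.55, adjusted p = 0.00184), and Cxcr2, the receptor of CXC chemokines, 7.86, 9.83 and 7.02 against 5.36 to 5.69 (2.72 ± 0.71, adjusted p = 0.012, or 0.077 without replicate 2). Normal samples were dim for both.

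Lymphocyte genes were called in both directions. Of 31 T and NK cell genes 4 rose and 1 fell, beside 8.34% and 12.1% of all genes, with 2 to 7 rises when 1 of the 8 arrays was left out at a time. Cd8a, a chain of the coreceptor of cytotoxic T cells, read 7.58, 8.21 and 7.69 against 7.32, 7.11, 7.19, 7.14 and 7.13 (0.65 ± 0.13, adjusted p = 0.00194), and Ctla4, an inhibitory receptor, 6.79, 7.47 and 6.99 against 6.02 to 6.28 (0.95 ± 0.19, adjusted p = 0.00161); the normal samples were dim for Ctla4. Cd3e of the T cell receptor complex read 8.16, 9.26 and 8.53 against 8.39 to 8.95 (adjusted p = 0.891). Of 19 B and plasma cell genes 2 rose and 4 fell, beside the same 8.34% and 12.1%, or 2 and 3 without replicate 2. The largest fall with all 3 tumours was that of Jchain, the joining chain of secreted antibodies. It read 7.17, 7.09 and 8.29 against 10.57, 11.19, 10.47, 10.73 and 9.84 (-3.04 ± 1.00, adjusted p = 0.0397). That call was lost without replicate 2 (adjusted p = 0.105), replicate 1 (0.0929) or any of 4 normal samples, while Irf4, a factor of plasma cells and other lymphocytes, fell by 1.10 ± 0.17 and was called either way (adjusted p = 0.000216 without replicate 2). None of the 3 erythrocyte genes passed, and of 15 genes of keratinised skin 1 fell, or 2 without replicate 2.

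Several inflammatory mediators rose: of 29, 11 rose and 1 fell (median 0.72), beside 8.34% and 12.1% of all genes, with 8 higher without replicate 2. Ccl2, the chemokine that draws monocytes, read 11.69, 11.18 and 11.79 against 8.55, 9.27, 8.74, 8.69 and 8.68 (log2 fold 2.77 ± 0.49, adjusted p = 0.000652), with little spread over the tumours, and Ccl3 10.33, 12.84 and 9.998 against 7.34 to 8.13 (3.39 ± 0.55, adjusted p = 0.000314). Ptgs2, the inducible cyclooxygenase, read 12.46, 11.75 and 10.27 against 8.41, 9.53, 9.35, 7.80 and 7.63 (2.95 ± 0.61, adjusted p = 0.00227), with replicate 3 lowest. Of 24 interferon response genes 3 rose, none of them without replicate 1, and 1 fell, beside 8.34% and 12.1% of all genes. Cxcl10, an interferon-induced chemokine, read 11.44, 10.65 and 8.85 against 7.99 to 8.27 (2.16 ± 0.58, adjusted p = 0.0146), and Irf1, a factor that interferon induces, rose by 0.90 ± 0.26. Both calls were lost without replicate 1 (adjusted p = 0.081 and 0.0679). Of 17 antigen presentation genes Psmb10, a subunit of the immunoproteasome, alone rose (0.97 ± 0.30, adjusted p = 0.0307), beside 8.34% of all genes. That call was lost without replicate 2 (adjusted p = 0.169), replicate 1 or either of 2 normal samples.

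Genes of 3 subunits of AP-1 rose, with all tumours above all normal samples. Whether these subunits act on Mmp13 or Mmp12 was not tested. Fosl1 read 10.52, 7.95 and 11.20 against 7.54, 7.65, 7.41, 7.40 and 7.41 (log2 fold 2.41 ± 0.55, adjusted p = 0.0049), with replicate 2 close to normal. Fosl2 read 10.23, 10.43 and 10.01 against 9.72, 9.36, 9.34, 9.22 and 9.19 (0.86 ± 0.18, adjusted p = 0.00251) and Junb 9.81, 9.59 and 9.11 against 8.63, 8.63, 8.52, 8.53 and 7.95 (1.05 ± 0.20, adjusted p = 0.00104). Jund, another subunit, changed the other way (-0.70 ± 0.21, adjusted p = 0.0265), as did the early gene Egr1 (-0.89 ± 0.25, adjusted p = 0.0193); neither call held without replicate 2 (adjusted p = 0.137 and 0.0834) or without replicate 1 (0.0699 and 0.07). Of the 20 early genes 4 rose, these 3 and Ier3, a regulator of survival (1.67 ± 0.36), and 14 did not pass. The other 2 fell, or 1 without replicate 2. Over all genes 8.34% rose and 12.1% fell.

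Imprinted genes are read from 1 parental copy, and many act in fetal growth. Of 16, 6 fell and 1 rose (median -1.10), beside 12.1% and 8.34% of all genes, with 6 lower without replicate 2 as well. Ndn, necdin, read 8.86, 6.91 and 8.85 against 11.13, 11.06, 11.12, 11.15 and 11.03 (log2 fold -2.89 ± 0.58, adjusted p = 0.00184), and Plagl1, a zinc finger factor, 7.84, 7.57 and 7.62 against 9.65, 9.42, 9.70, 9.82 and 9.71 (-1.98 ± 0.26, adjusted p = 3.88e-05). Nnat, neuronatin, which the adipocyte list holds too, read 7.10, 7.43 and 10.03 against 11.44 to 12.79, with replicate 3 well above the others. Asb4 was the gene that rose, at 7.13, 8.86 and 6.61 against 6.38 to 6.47 (1.11 ± 0.32, adjusted p = 0.021), mostly in replicate 2.

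**Figure D4:**
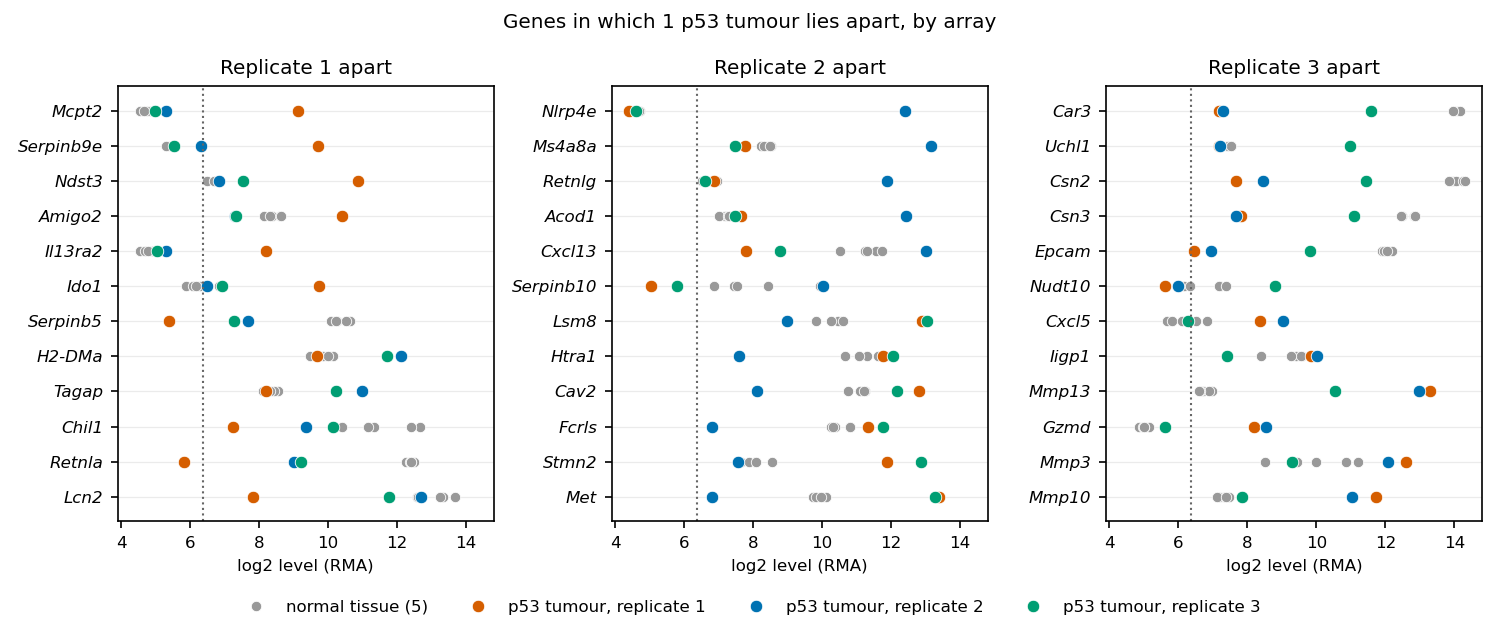
Log2 level (RMA, x axis) of genes in which 1 p53 tumour lay farthest from the other two, which were within 1 log2 unit of each other, in 3 panels, 1 for each tumour; coloured points are the 3 p53 tumours, grey points the 5 normal samples and the dotted line marks the dim level of 6.37. The genes were chosen for that gap, so the plot shows its size and which side the normal samples fall on.

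The tumours also differed from each other in genes that are given here as values only, since they were picked for 1 tumour lying apart and 1 array has no replicate. Replicate 1 was high in Ido1, an enzyme that breaks down tryptophan, at 9.73, 6.50 and 6.93 against 5.90 to 6.85 in normal tissue, in Mcpt2, a mast cell protease, at 9.12, 5.32 and 4.98 against 4.56 to 4.87, and in Ndst3, which modifies heparan sulphate, at 10.87, 6.84 and 7.53 against 6.49 to 6.82. It was low in Lcn2, lipocalin 2, at 7.83, 12.69 and 11.76 against 12.59 to 13.69, and in H2-DMa, which loads peptides on class II molecules, at 9.68, 12.12 and 11.71 against 9.48 to 10.15.

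Replicate 2 was high in Acod1, the itaconate-producing enzyme of activated macrophages, at 7.65, 12.43 and 7.46 against 7.02 to 7.39, in Retnlg, a resistin-like protein of neutrophils, at 6.86, 11.88 and 6.60 against 6.52 to 6.94, and in Cxcl13, the chemokine that draws B cells, at 7.79, 13.00 and 8.79 against 10.50 to 11.72. The widest gap between 1 tumour and the others was in Nlrp4e, a NOD-like receptor gene, at 4.39, 12.41 and 4.61 against 4.40 to 4.71; all arrays but that of replicate 2 were dim. Replicate 2 was low in Met and in Stmn2, a tubulin-binding protein of neurons, at 11.87, 7.56 and 12.87 against 7.65 to 8.54, Htra1, a secreted serine protease, at 11.77, 7.60 and 12.04 against 10.65 to 11.86, and Cav2, caveolin 2, at 12.82, 8.13 and 12.16 against 10.75 to 11.25. Lists with their highest mean of the 8 arrays on this array included macrophage, neutrophil, T and NK cell, keratinised skin, antigen presentation and inflammation. Those with their lowest included growth factor, endothelial, fibroblast, G1 to S regulators, ribosome biogenesis, mitochondrial translation and the Wnt, Notch and Hippo list. Whether cell mixture or the narrower range of values on the array accounts for these and its other differences was not tested.

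Replicate 3 had the highest means of the 3 tumours on the luminal list (7.65, 7.86 and 8.17 in replicates 1, 2 and 3, normal samples 9.82 to 9.93), the milk list and the adipocyte list. Besides Epcam, the caseins and Car3, it was high in Uchl1, a deubiquitinating enzyme, at 7.18, 7.20 and 10.97 against 7.22 to 7.54. It was low in Mmp10 and Mmp3, in Cxcl5, a chemokine for neutrophils, at 8.37, 9.04 and 6.29 against 5.66 to 6.84, in Iigp1, an interferon-induced GTPase, at 9.85, 10.04 and 7.43 against 8.41 to 9.60, and in Gzmd, a granzyme, at 8.19, 8.53 and 5.63 against 4.87 to 5.15.

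The other tumours of the series, labelled Rbp53, lack both genes. On the 12 tumour arrays limma called 1 of 19938 genes (0.00502%) at an adjusted p below 0.05, with 4117 at an unadjusted p below 0.05 (20.6%). Without p53 replicate 2 it called 2 (0.01%), with 1667 at an unadjusted p below 0.05. The called gene was H2-Ea, a chain of the class II molecule H2-E, which some inbred strains do not make. It read 8.04, 9.68 and 9.16 in p53 replicates 1, 2 and 3, 6.27 to 6.89 in the 9 Rbp53 tumours and 8.41, 7.65, 8.08, 7.05 and 7.05 in normal tissue (log2 fold 2.43 ± 0.25 between the tumour groups, adjusted p = 0.0082). The p53 tumours thus lay above every Rbp53 tumour, and replicate 1 lay inside the normal range. Without replicate 2 the adjusted p was 0.0184, and Gm4876, a predicted gene, was the other 1 called, at 8.51, 6.01 and 7.95 against 6.05 to 6.44. With replicate 3 counted as an Rbp53 tumour H2-Ea was not called (adjusted p = 0.052), and 931 genes were higher and 1113 lower. That sets 2 tumours, of which replicate 2 stands apart, against 10. The count of called genes also depended on the fit and the tumours used. With all 17 arrays fitted as 3 groups 114 genes were higher and 242 lower. On the tumour arrays without p53 replicate 3, 511 were higher and 847 lower.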

How the data were processed

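RNA of 17 mouse mammary samples was read on Mouse Gene 1.0 ST arrays (Affymetrix), and 3 p53 tumours and 5 normal samples are compared here. The deposited values are log2 expression, made by the authors with RMA in Partek 5.6 according to the submitters' processing notes; the genome build is not given in the sources used here. RMA is meant to set the probe values of all arrays to one distribution, so a shift shared by most genes would not be seen, and low values are compressed. The probe set values of p53 replicate 2 still had a narrower interquartile range than those of any other array. Of 35556 probe sets, 21789 had 1 gene symbol in the platform annotation, 1621 had several and 12146 had none here; 21698 matched RefSeq by Entrez number. The probe set with the highest mean over all arrays stood for a gene, which left 19938 genes and dropped 1851 probe sets.

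All 17 arrays were fitted as 3 groups with limma 3.58.1 in R 4.3.3, with Benjamini-Hochberg adjustment over all genes and a threshold of 0.05; the p53 and Rbp53 tumours were compared on the 12 tumour arrays. The fit was tested on simulated data. The members and the gene lists were chosen with earlier results of these data known. Genes are named by 5 rules: a set of markers, the 12 largest shared rises and falls (predicted genes aside), up to 4 called members of each list in each direction with uncalled defining markers, the genes in which 1 tumour lies apart, and all genes called between tumour models. Pparg, Cebpa and Gm4876 were added after their values were seen, and so were the motifs searched. The number of arrays limits the precision. Alternatives were other variance, weighting and normalisation settings, other probe set rules, each array left out, and replicate 3 counted as an Rbp53 tumour.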

Additional observations from a re-analysis of the deposited data

Results flagged for a closer look

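In 9 of the 146 named genes 1 normal sample lay far from the other normal samples, where chance gives about 1 in 20. Normal replicate 2 was high in Ccl2 (9.27, the others 8.55 to 8.74) and Plaur (8.14, the others 7.90 to 7.95) and low in Irf4 (8.38, the others 8.62 to 8.71). Normal replicate 5 was low in Junb (7.95, the others 8.52 to 8.63), Oxtr (8.80, the others 10.02 to 10.40) and Plk3 (8.67, the others 9.08 to 9.23). Replicate 1 was low in Rspo1 (9.22, the others 11.69 to 11.97), replicate 3 low in Fgf10 (10.03, the others 10.46 to 10.63) and replicate 4 high in Tnc (8.85, the others 8.03 to 8.22). In all 9 genes the 3 p53 tumours lay outside the range of all 5 normal samples, the outlying one included. That was required by the rule that named Tnc, and called list members were ranked by their least changed tumour. The outcome was thus largely set by how genes were named.

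H2-Ea differed between the p53 and the Rbp53 tumours (log2 fold 2.43, limma adjusted p = 0.0082). Cd8a was on average 0.65 log2 units above the normal mean in p53 tumours and at -0.24 from it in Rbp53 tumours. Every tumour of each model lay on its own side, but that was the rule by which Cd8a was picked from the 146 named genes. The test of the difference gave a limma adjusted p of 0.0935 over all genes.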

How the results depend on the processing

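No paired analysis was possible because the labels give the groups no shared replicate numbers. Of the 146 named genes set against normal tissue, 127 were called, 85 of those kept their call in every alternative and none changed direction; 17 lost it without p53 replicate 2, 12 with replicate 3 counted as an Rbp53 tumour (Rb1, Krt14, Csf1r, Adgre1, Pmaip1, Plk3, Skp2, Anln, Mcl1, Tgfb3, Wnt7b and Hmga2), 10 when only the 8 arrays compared were fitted and 4 under cyclic loess. Cdc25c and Cenpa, named in the text without values, also lost their calls with replicate 3 so counted, and Krt18 and Acta2 gained one. Leaving out replicate 2 as well leaves 1 p53 tumour, replicate 1, assumed to vary like the arrays of the other groups. Calls kept or lost in that setting say nothing about stability, and the count kept in every alternative includes it. Many of the named genes were also picked for being called with and without replicate 2, or ranked by their least changed tumour. The share of named genes that kept their call is thus partly fixed by the naming rules and is no measure of stability. The count of genes called higher moved to 949 with only the 8 arrays compared, to 2883 with replicate 3 counted as an Rbp53 tumour, and to 447 at a log2 fold of at least 1, where 1170 were lower; with 1 array left out at a time it ranged from 1156 to 2723. Genes called higher without overlap numbered 2312 with replicate 3 so counted, and 1006 to 2265 with 1 array left out. Between tumour models the counts of higher and lower genes were 2 and 1 with array weights, 114 and 242 with all 17 arrays fitted, 931 and 1113 with replicate 3 counted as Rbp53, and 6 and 6 with replicate 2 left out as well, where replicate 1 alone is set against the Rbp53 tumours and the spread is theirs; 1 gene was lower without dim genes, after another quantile normalisation and under cyclic loess, and with 1 tumour left out the counts ranged from 1 to 511 and from 0 to 847, most without p53 replicate 3. The cause of these shifts was not tested.

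Genes that changed direction were all uncalled in the main comparison. Their log2 folds with array weights were 0.64 (Krt8), 0.045 (Mdm2), 0.62 (Myc), 0.22 (Yap1) and 0.29 (Zeb1), and with replicate 2 left out and replicate 3 counted as Rbp53, where the fold is that of replicate 1 alone over the normal mean, they were 0.82 (Krt8), 0.17 (Mdm2), 0.76 (Myc), 0.10 (Pecam1), 0.42 (Yap1) and 0.57 (Zeb1). With replicate 3 counted as Rbp53 they were -0.29 (Ccnd1), 0.008 (Cd3e) and -0.034 (Rbl1), and Cd3e was 0.048 after another quantile normalisation. With 1 array left out the folds ranged from -0.71 to 0.75 for Krt8, -0.19 to 0.025 for Mdm2, -0.70 to 0.76 for Myc, -0.94 to 0.33 for Yap1, -0.89 to 0.31 for Zeb1, -0.35 to 0.20 for Cd3e, -0.29 to 0.99 for Ccnd1, -0.31 to 0.69 for Col1a1 and -0.16 to 0.62 for Rbl1. RMA values near the dim level carry little information on size, and the 3 tumours limit every count.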

Other observations

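Apart from Tgfb3, which the naming rule picked, the list members given here were left out by that rule and chosen after their values were seen. Of the transforming growth factors Tgfb1 read 11.00, 10.95 and 11.45 in p53 replicates 1, 2 and 3 and 9.89 to 10.29 in normal tissue (log2 fold 1.00 ± 0.18, limma adjusted p = 0.000668), and Tgfb3 10.39, 10.25 and 10.34 against 10.95 to 11.77 (-0.92 ± 0.32, adjusted p = 0.0482). The call on Tgfb3 was lost whichever of the 8 arrays was left out (adjusted p up to 0.109, without replicate 2) and with replicate 3 counted as an Rbp53 tumour. Hmga2, a chromatin protein of embryonic tissue, read 11.52, 7.92 and 10.43 against 7.54 to 7.89 (2.24 ± 0.66, adjusted p = 0.0242), with replicate 2 the lowest tumour; the call was lost without replicate 1 (adjusted p = 0.129) or 3 (0.0646) and with replicate 3 counted as an Rbp53 tumour (0.0568).

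Among macrophage genes C1qa, a chain of the complement component C1q, read 11.73, 13.15 and 12.38 against 10.50 to 11.21 (1.62 ± 0.35, adjusted p = 0.00318). Cxcl2, a chemokine for neutrophils, read 8.55, 11.85 and 6.89 against 5.34 to 5.92 (3.42 ± 0.88, adjusted p = 0.0112, or 0.072 without replicate 2), the normal samples all being dim, and S100a9, a calcium-binding protein of neutrophils, 8.87, 12.07 and 7.66 against 6.53 to 6.93 (2.76 ± 0.68, adjusted p = 0.00835, or 0.0315 without replicate 2).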
